A study of Mus musculus with 4 samples.

Results

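The genes described are the transcriptional core of the Hippo pathway and its close targets in the mouse, 10 of the 21631 genes that code for protein on chromosome X and the 19 autosomes. They are the coactivator genes Yap1 and Wwtr1 (which encodes TAZ), the DNA-binding partner genes Tead1, Tead2, Tead3 and Tead4, the target genes Ccn1 (also written Cyr61), Ccn2 (also written Ctgf) and Amotl2, and Wwc1, which encodes the scaffold protein KIBRA. They were chosen by name, and every summit of the deposited peak list inside a gene or within 50 kb of it was taken, which gave 293 summits of 178981. The windows of the 10 genes did not overlap, so no summit was counted for more than 1 of them.

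The summits come from CUT&Tag for Fos, an assay in which an antibody leads the transposase Tn5 to the DNA around the bound protein. Wild-type (WT) colonic epithelium was profiled in 4 libraries of 1 batch: 2 from colitis recovered mice and 2 from healthy controls. Colitis recovered mice had been given dextran sodium sulfate at 1 to 1.5% in the drinking water, which damages the lining of the colon. They drank it in 3 cycles of 7 days each, with 10 days off after a cycle, and were taken 22 days after the last cycle. Healthy controls carry the treatment label control. The sources used here do not say whether animals were pooled.

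The peak list is a single table with no column for a library, and which of the 4 libraries entered it is not stated in the sources used here. Colitis recovered and healthy colon were therefore not compared, no value has a replicate error, and no test was made. The fold enrichment of a summit is the authors' own ratio of its signal to the background. The pileup, the number of fragments that overlap the summit, was worked out from it, with the fold read as the pileup plus 1 over the background of 3.16 fragments plus 1. Intervals are exact 95% Poisson intervals of a pileup and cover counting error only. No control library without the Fos antibody was used here, so the part of the signal that comes from open chromatin alone was not measured. In such bulk tissue, fewer cells that carry a site and less signal per cell cannot be told apart.

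The Hippo pathway is a kinase cascade that senses cell contacts, polarity and tension. When it is active, the LATS kinases phosphorylate YAP and TAZ and hold them in the cytoplasm. When it is off, YAP and TAZ enter the nucleus, bind TEAD proteins at enhancers and promoters and switch on genes of growth and repair. In the intestine YAP is known for its part in regeneration after injury. AP-1, the family to which Fos belongs, is known from human cancer cells to occupy many of the same enhancers as YAP, TAZ and TEAD.

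The tissue label was checked on marker genes. All 10 genes of the colonic epithelium list had a summit within 1 kb of a start, with a median of 58 summits in and around each gene. Of the lists for other cells, 1 of 7 lymphocyte genes, 1 of 5 myeloid genes, 1 of 6 fibroblast genes, 1 of 5 endothelial genes, 0 of 4 smooth muscle genes and 1 of 4 enteric neuron and glia genes had one. Among all protein-coding genes the share was 62.0%. The lists for other cells had medians of 17, 23, 1, 18, 17.5 and 6.5 summits per gene, in the same order, against 16 over all protein-coding genes. The start of a gene is the one that RefSeq lists with a promoter, and for genes without such an entry either boundary of the gene was used in its place.

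Most of the 10 genes had a Fos summit at their start, and most had a stronger site elsewhere, as did most protein-coding genes with a start summit. A summit lay within 1 kb of the start or boundary at 9 of the 10 genes, against 62.0% of protein-coding genes (95% Wilson interval 61.3 to 62.6). Tead2 was the exception. Of the 7 genes with a listed start 6 had such a summit, against 62.2% of genes with a listed start. Tead1, Tead4 and Ccn2 have no entry in the promoter table, and all 3 had a summit at a boundary, against 60.8% of protein-coding genes without an entry. The highest start fold had a median of 15.6 over these 9 genes, against 27.9 over all protein-coding genes with a start summit, and 7 of the 9 lay below that value. In 8 of the 9 the strongest summit of the window lay beyond 1 kb and its pileup interval did not overlap that of the start, against 64.2% of protein-coding genes with a start or boundary summit.

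The 6 promoters below are shown because each holds a Fos summit in the 250 bases before the outermost start. The sequences are RefSeq's for GRCm38.p6, the assembly that mm10 names, and each is written 5′ to 3′ on the strand of the gene. Capitals mark the TEAD hexamer GGAATG, or CATTCC where it lies on the other strand. Yap1 lies at chr9:8004597-8004846 on the minus strand, Wwtr1 at chr3:57575911-57576160 on the minus strand and Tead3 at chr17:28350806-28351055 on the minus strand. Ccn1 lies at chr3:145649986-145650235 on the minus strand, Amotl2 at chr9:102717554-102717803 on the plus strand and Wwc1 at chr11:35980528-35980777 on the minus strand. The listed starts of Yap1 and Amotl2 lie inside the boundaries RefSeq gives these genes, so their windows overlap the annotated gene.
Yap1: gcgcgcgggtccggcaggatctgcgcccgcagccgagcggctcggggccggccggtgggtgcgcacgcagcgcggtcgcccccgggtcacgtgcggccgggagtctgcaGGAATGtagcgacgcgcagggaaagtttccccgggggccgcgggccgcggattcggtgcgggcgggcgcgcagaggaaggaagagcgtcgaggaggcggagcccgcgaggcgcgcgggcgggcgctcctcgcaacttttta
Wwtr1: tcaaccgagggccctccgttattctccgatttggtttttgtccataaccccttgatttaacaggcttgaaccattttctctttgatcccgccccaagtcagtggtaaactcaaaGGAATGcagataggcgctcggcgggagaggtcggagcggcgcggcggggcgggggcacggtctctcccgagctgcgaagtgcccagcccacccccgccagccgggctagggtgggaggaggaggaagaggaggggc
Tead3: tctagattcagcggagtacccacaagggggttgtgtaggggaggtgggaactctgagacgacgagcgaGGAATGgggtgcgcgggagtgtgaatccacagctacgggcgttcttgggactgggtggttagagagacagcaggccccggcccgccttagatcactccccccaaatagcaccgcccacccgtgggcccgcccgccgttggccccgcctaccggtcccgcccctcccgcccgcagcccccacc
Ccn1: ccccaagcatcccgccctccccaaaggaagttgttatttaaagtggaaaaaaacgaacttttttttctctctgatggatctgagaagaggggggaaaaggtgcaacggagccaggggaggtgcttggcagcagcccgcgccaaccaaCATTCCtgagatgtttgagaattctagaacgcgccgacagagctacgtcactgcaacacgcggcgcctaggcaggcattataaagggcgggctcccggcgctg
Amotl2: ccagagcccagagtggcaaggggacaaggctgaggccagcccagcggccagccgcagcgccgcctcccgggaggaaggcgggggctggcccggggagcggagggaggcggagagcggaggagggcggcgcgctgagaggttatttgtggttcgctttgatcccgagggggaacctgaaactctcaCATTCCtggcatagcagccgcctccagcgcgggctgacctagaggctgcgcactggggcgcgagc
Wwc1: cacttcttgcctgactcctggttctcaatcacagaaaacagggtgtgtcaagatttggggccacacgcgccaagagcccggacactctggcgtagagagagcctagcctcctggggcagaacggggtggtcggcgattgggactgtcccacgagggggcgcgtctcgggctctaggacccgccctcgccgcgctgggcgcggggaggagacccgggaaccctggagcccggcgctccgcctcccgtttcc

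The TEAD hexamer was present in 5 of the 6 promoters, all but that of Wwc1, and was absent from the promoter of Tead2, which holds no summit, so 5 of the 7 listed promoters had it. It was present in 9.61% of the 6189 protein-coding promoters of the same length that hold a summit (95% Wilson interval 8.90 to 10.4) and in 11.5% of all 17274. The hexamer began 141 bases before the start in Yap1, 136 in Wwtr1, 182 in Tead3, 103 in Ccn1 and 65 in Amotl2. The summits of these promoters lay 185 bp before the start in Yap1, 131 bp in Wwtr1, 187 bp in Tead3, 122 bp in Ccn1, 52 bp in Amotl2 and 91 bp in Wwc1. From the summit to the middle of the hexamer was 2.5 bp in Wwtr1, 7.5 bp in Tead3 and 10.5 bp in Amotl2. It was 21.5 bp in Ccn1 and 46.5 bp in Yap1. A summit is 1 point in a wider region, which spans 792 bp in Wwtr1. The AP-1 motif TGANTCA was in 0 of the 6 promoters, against 4.57% of promoters with a summit and 6.23% of all, and the cAMP response element TGACGTCA in 0, against 2.99% and 2.01%. All motifs were searched on both strands. The letters say only what these windows hold.

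Counted over the whole window, 7 of the 10 genes had more summits than the median gene, against 47.9% of protein-coding genes. All 10 had at least 1 summit, against 86.3% of protein-coding genes. The count had a median of 25 per gene and ran from 2 to 62, against a median of 16 over all protein-coding genes (quartiles 5 and 29). Wide windows of long genes hold more summits. With all genes parted into 5 length classes, 8 of the 10 genes had more than the median gene of their own class. These were the same 7 and Ccn1, whose 16 summits equal the median of all genes but exceed the 4 of its class. The share of all genes above their class median was not worked out. Per 10 kb of window the median was 1.75 summits over the 10 genes, against 1.11 over all protein-coding genes. The summits were about as strong as those elsewhere, with a median fold of 6.98 over the 293, against 6.73 over all summits. Only 20 of them (6.83%) were in the strongest 10.0% of all summits, which begin at a fold of 38.0. These 20 were spread over 8 of the 10 genes, against 60.4% of protein-coding genes with at least 1.

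**Figure D1:**
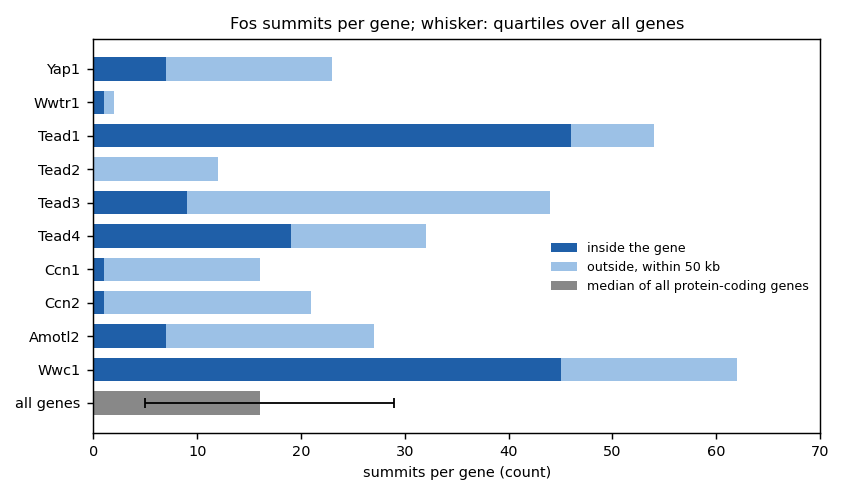
Summits in each gene (dark) and outside it within 50 kb (light), as counts on the horizontal axis, with the median of all protein-coding genes in grey and a whisker from the lower to the upper quartile. Wwc1 with 62 and Tead1 with 54 have the longest bars, mostly from summits inside the gene, and Wwtr1 has 2.

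**Figure D2:**
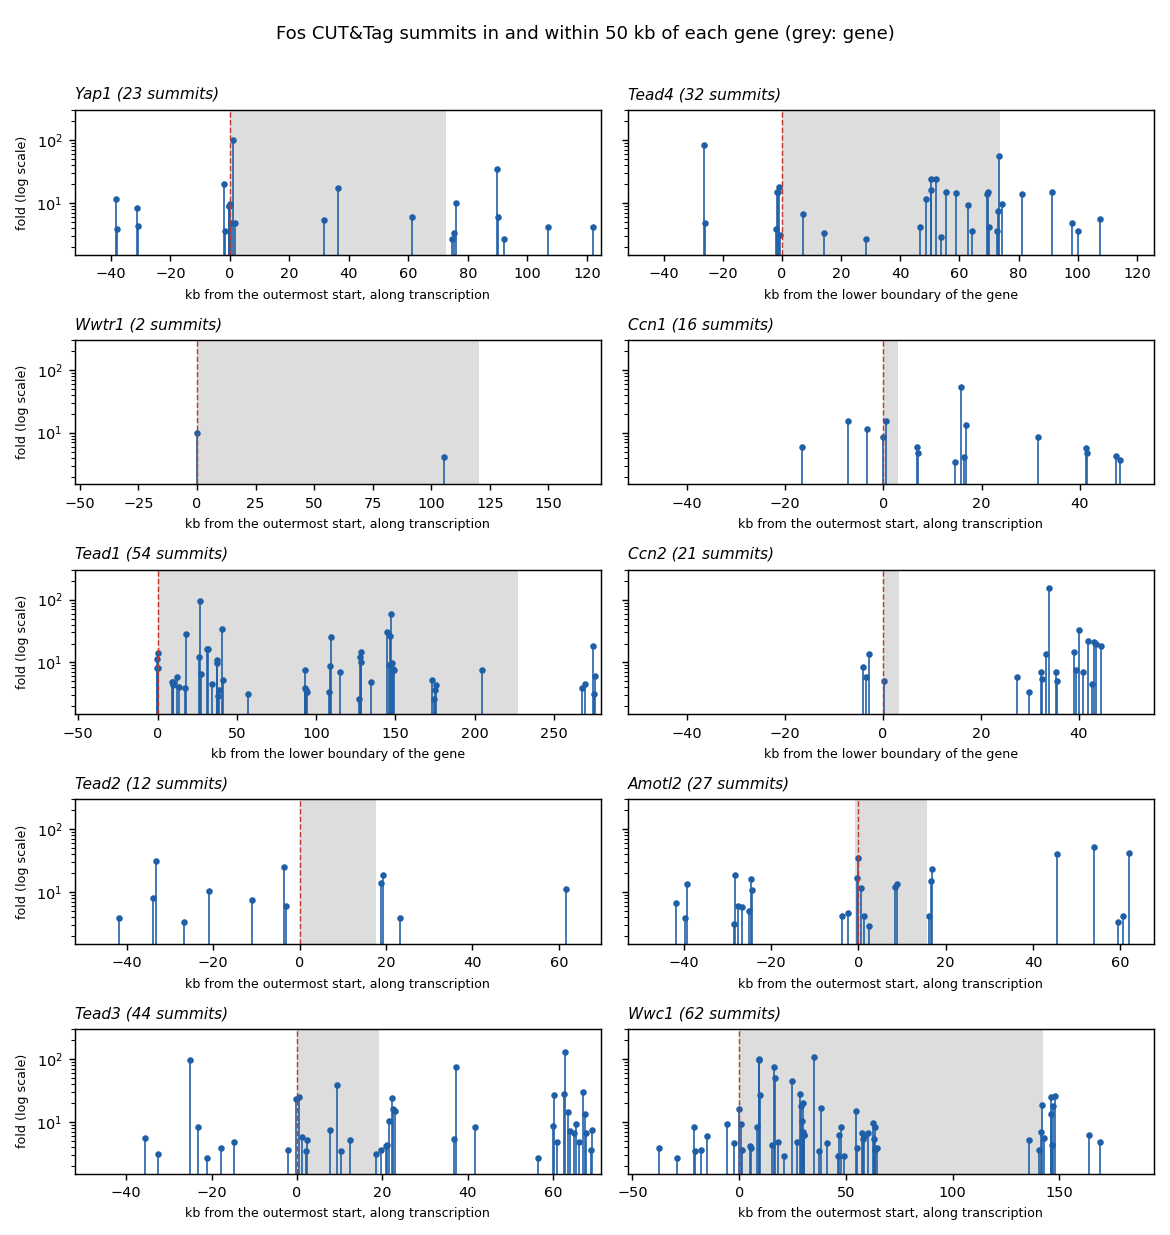
Each panel plots the summits of 1 gene as stems, with the fold on a log axis against the distance in kb. The dashed line marks the outermost listed start, with transcription to the right, or the lower boundary for Tead1, Tead4 and Ccn2, and grey marks the gene. The highest stems of Ccn1, Ccn2, Amotl2, Tead2, Tead3 and Tead4 stand outside the grey area, and those of Tead1 and Wwc1 stand inside it.

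The coactivator genes differed widely in the number of summits. Yap1, on chromosome 9 from 7931999 to 8004638, had 23 summits in 13 regions, 7 of them inside the gene. Fewer than 23 were found at 63.3% of protein-coding genes, and 55.8% had fewer per 10 kb of window. Wwtr1, on chromosome 3 from 57455644 to 57575910, had 2 summits, fewer than the median of 19 for genes of its length, and only 17.3% of protein-coding genes had fewer. YAP and TAZ are paralogs that bind the same TEAD partners.

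The strongest site of Yap1 lay just inside the gene. Its summit at 8003554, 1042 bp after the start, had a fold of 101, with 419 fragments (380 to 461), and 98.0% of all summits were weaker. It belonged to a region of 2280 bp with 6 summits that also spans the start. The 4 summits of that region within 1 kb of the start had folds of 9.62, 8.90, 8.90 and 4.81, against a median of 6.73 over all summits. With 1042 bp, the strong summit missed the limit of 1 kb by little. Next came a summit 17241 bp beyond the far end of the gene with a fold of 35.1 and 145 fragments (122 to 171), and one 2126 bp before the start with a fold of 19.7 and 81 fragments (64 to 101). Inside the gene the site at 36331 bp from the start had a fold of 17.1.

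In Wwtr1 the stronger of the 2 summits was the one at the promoter shown above, with a fold of 9.86 and 40 fragments (29 to 54). Its interval overlaps that of the strongest start summit of Yap1, 39 fragments (28 to 53). The other lay 105340 bp into the gene with a fold of 4.09 and 16 fragments (9 to 26). No summit was called in between. Beyond the window, summits 51371 and 51671 bp from the gene had folds of 10.6 and 9.86.

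The TEAD genes encode the DNA-binding proteins through which YAP and TAZ act, and their loci differed in the number of summits. Tead1 had 54 summits, Tead3 44, Tead4 32 and Tead2 12. The order was not the same for the highest fold, which was 132 in the window of Tead3, 94.3 in that of Tead1, 83.2 in that of Tead4 and 30.8 in that of Tead2. Both orders depend on the window. Within 100 kb the counts were 86 for Tead3, 63 for Tead2, 60 for Tead1 and 46 for Tead4, and Tead2 then had the highest fold, 183. Counting only summits whose nearest protein-coding gene was the TEAD gene gave 49 for Tead1, 28 for Tead4, 10 for Tead3 and 0 for Tead2.

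Tead1, on chromosome 7 from 112679356 to 112906784, held 46 of its 54 summits inside the gene. Fewer than 54 were found at 94.8% of protein-coding genes. Its window of 327 kb is wide, and only 63.2% of protein-coding genes had fewer than its 1.65 summits per 10 kb. Within the first 60 kb above its lower boundary lay 21 of the 46, and the other 25 were spread over the rest. The strongest, at 26844 bp above the lower boundary, had a fold of 94.3, with 391 fragments (353 to 432). A separate cluster followed at 147132 bp, with a fold of 59.9 and 248 fragments (218 to 281), next to a summit of fold 30.5 at 144600 bp. A site at 40957 bp had a fold of 34.4, with 142 fragments (120 to 167). At the lower boundary a region of 1453 bp carried 4 summits with folds of 8.18 to 14.2, the highest with 58 fragments (44 to 75). The highest boundary summit was below the interior sites just named, and its interval overlapped that of an interior summit at 128322 bp with a fold of 14.7.

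Tead4, on chromosome 6 from 128227143 to 128300813, was the gene with the strongest boundary signal. The summit 151 bp below its upper boundary had a fold of 57.0, with 236 fragments (207 to 268), in a region of 2477 bp. It was the only one of the 24 start or boundary summits of the 10 genes in the strongest 10.0% of all summits. The upper 40 kb of the gene held 16 of its 19 interior summits, with folds of 24.3 at 52150 bp and 23.8 at 50548 bp above the lower boundary among them. The strongest site lay outside, 26360 bp below the gene, with a fold of 83.2 and 345 fragments (310 to 383). Tead4 was the nearest protein-coding gene of that site and of 28 of the 32 summits.

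Tead3, on chromosome 17 from 28331671 to 28350805, had more summits than 89.4% of protein-coding genes. Only 10 of the 44 were nearest to Tead3, since the window holds 5 other protein-coding genes. The strongest, with a fold of 132 and 546 fragments (501 to 594), lay 43699 bp below the gene inside Ppard, the gene of a nuclear receptor for fatty acids, and Ppard was the nearest gene of 16 of the 44. A site next to Fance, 18145 bp below Tead3, had a fold of 73.8, with 306 fragments (273 to 342). On the upstream side, 25083 bp before the outermost start, a summit had a fold of 97.9, with 406 fragments (367 to 447), 10672 bp from its nearest gene Tulp1. Sites that belong to Tead3 by position were weaker.

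RefSeq lists 3 starts for Tead3. The start summits had folds of 24.8 (102 fragments, 83 to 124), 23.3 (96 fragments, 78 to 117) and 5.77 in 1 region of 2215 bp, and the second of these is the one in the promoter shown above. Inside the gene, 9021 bp from the nearest start, lay a summit with a fold of 38.2 and 158 fragments (134 to 185), just within the strongest 10.0% of all summits. Its interval lay just above those of the start summits.

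Tead2, on chromosome 7 from 45215792 to 45233468, had no summit inside the gene and none within 1 kb of its start. All 12 summits of its window lay nearer to other genes. The highest folds were 30.8 with 127 fragments (106 to 151), 580 bp from Pth2, and 25.0 with 103 fragments (84 to 125), inside Dkkl1 and 3722 bp before the start of Tead2. Its window is crowded, with 8 other protein-coding genes, and genes of the same density class (of 5) had a median of 24 summits. A gene interior without a summit was found in 1 of the 10 genes, while 68.4% of protein-coding genes had at least 1 summit inside.

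Ccn1 and Ccn2 encode secreted matricellular proteins that act on cell adhesion, migration and matrix, and both are among the best known direct targets of YAP and TEAD. Both genes are short, at 3015 and 3242 bp, and each held 1 summit inside. Around them lay 16 summits for Ccn1 and 21 for Ccn2, against a median of 16 over all protein-coding genes, 14 for genes of their density class and 4 for genes of their length class. Of these, 11 and 4 had Ccn1 and Ccn2 as their nearest protein-coding gene. Their strong sites lay at a distance.

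At Ccn1, on chromosome 3 from 145646971 to 145649985, the strongest summit lay 12699 bp beyond the 3′ end and 15713 bp from the start. It had a fold of 53.6, with 222 fragments (194 to 253), in a region of 1948 bp with 3 summits. Ccn1 was the nearest protein-coding gene of that site and of 11 of the 16 summits. The start region of 1226 bp had a summit 487 bp after the start with a fold of 15.6 and 64 fragments (49 to 82), and the one in the promoter shown above with a fold of 8.66 and 35 fragments (24 to 49). Upstream sites at 7142 bp and 3414 bp before the start had folds of 15.4 and 11.3, near the level of the start.

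At Ccn2, on chromosome 10 from 24595442 to 24598683, the gene itself had 1 weak summit, 266 bp above its lower boundary, with a fold of 5.05 and 20 fragments (12 to 31). It was the weakest start or boundary maximum of the 9 genes that had one. Just below the gene, at 2876 bp, a summit had a fold of 13.5, with 55 fragments. The strongest summit of all 10 genes lay 30630 bp above Ccn2, with a fold of 154 and 640 fragments (591 to 692), and 99.4% of all summits were weaker. That site was 8601 bp from Enpp1, the gene of a phosphodiesterase that forms pyrophosphate, and 30630 bp from Ccn2, so by distance it belongs to Enpp1. Of the 21 summits, 17 lay above the gene, and Ccn2 was the nearest protein-coding gene of 4. The 3 summits below the gene lay inside Gm15270, a gene that does not code for protein. Within the densest 10 kb, from 24627727 to 24637249, there were 11 summits in 5 regions, all of them nearest to Enpp1.

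Amotl2 encodes a member of the angiomotin family, scaffolds of cell junctions that bind YAP and are themselves YAP targets. On chromosome 9 from 102717091 to 102733418, it was the only one of the 10 genes with no other protein-coding gene in its window. It was the nearest protein-coding gene of all 27 summits. Its start was among the stronger ones, with the summit in the promoter shown above at a fold of 35.1 and 145 fragments (122 to 171). Further start summits had folds of 16.8 and 11.8. The strongest sites lay far beyond the 3′ end, at 38367 bp with a fold of 52.0 and 215 fragments (187 to 246), at 46397 bp with 41.6 and 172 fragments (147 to 200), and at 29777 bp with 40.4 and 167 fragments (143 to 194). The intervals of these 3 sites overlap, and the lower pair also overlaps the start. Genes that do not code for protein lay nearer to these 3 sites, at 3319 and 1240 bp (both Gm46151) and 6510 bp (Gm5627). Close to the 3′ end, at 1330 bp, a summit had a fold of 23.3.

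Wwc1 encodes KIBRA, which helps to activate the LATS kinases and is itself a target of YAP. Its locus, on chromosome 11 from 35838399 to 35980527, held the most summits of the 10 genes, 62 in 38 regions. Fewer were found at 96.9% of protein-coding genes. Per 10 kb of its 242 kb window it had 2.56 summits, and 79.9% of protein-coding genes had fewer. By that measure Tead3, with 3.69, had the most of the 10 genes. Inside Wwc1 lay 45 of its 62 summits. These were gathered toward the start, with 25 in the first 40 kb and 41 in the first 80 kb of the gene.

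All 6 summits of Wwc1 in the strongest 10.0% of all summits lay in these first 40 kb. The strongest, 35116 bp from the start, had a fold of 109, with 453 fragments (412 to 497). Close to it in strength was a pair in 1 region of 1946 bp, at 9184 and 9498 bp from the start, with folds of 101 (420 fragments, 381 to 462) and 95.5 (396 fragments, 358 to 437). The intervals of these 3 summits overlap. Another pair at 16083 and 16645 bp had folds of 75.0 and 50.8, and the summit at 24731 bp had 44.5. The start was weaker, with a fold of 15.9 and 65 fragments (50 to 83) at the promoter shown above and 9.14 at 643 bp after the start.

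**Figure D3:**
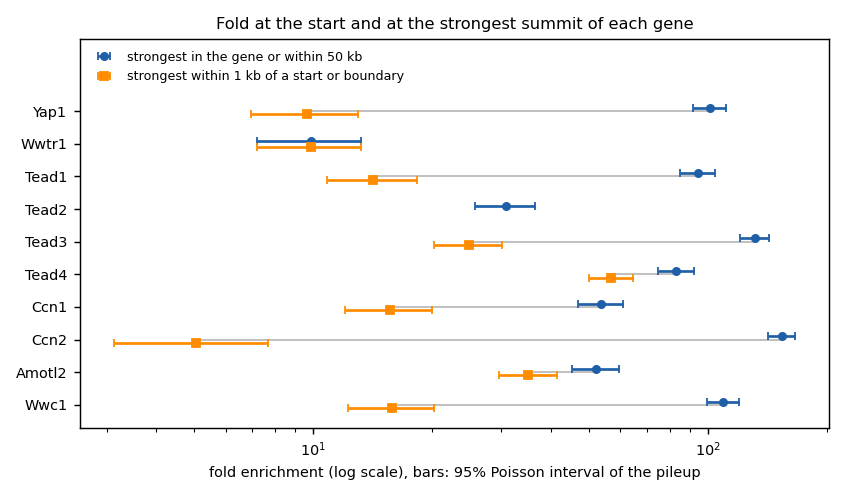
For each gene the strongest summit within 1 kb of a start or boundary (squares) and the strongest in the whole window (circles), as fold on a log axis with 95% Poisson intervals of the pileup. The points of Wwtr1 coincide at 9.86, Tead2 has no start summit, and the widest gap is that of Ccn2, with 154 in the window and 5.05 at the boundary.

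Across the 10 genes the highest fold in the window had a median of 88.8, against 55.1 over all protein-coding genes (quartiles 15.4 and 105). Neither median was adjusted for window width, and a wider window holds more summits from which the highest is taken. Ccn2 ranked highest, above 89.1% of protein-coding genes, and Wwtr1 lowest, above 21.2%. The strongest summit lay inside the gene in 3 of the 10, which were Yap1, Tead1 and Wwc1, against 21.6% of protein-coding genes with a summit in the window. In 7 of the 10 the gene was also the nearest protein-coding gene of that summit, against 40.1% of protein-coding genes with a summit, and Tead2, Tead3 and Ccn2 were the exceptions. The shares of 21.6% and 40.1% were not matched for gene length or gene density. Yap1, Tead1 and Wwc1 are all in the longest of the 5 length classes. Over all 293 summits, 197 had the gene whose window they were in as their nearest protein-coding gene. The same share over the windows of all protein-coding genes was not worked out, so this count cannot be called high or low. The limit of 50 kb was not a gap in the signal, since 14 summits lay between 45 and 50 kb from these genes, with folds of 3.13 to 41.6, and 15 lay between 50 and 55 kb, with folds of 3.13 to 74.3.

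The rest of the pathway was described on 46 further genes in 4 lists taken from textbook knowledge. Of these, 38 had a summit within 1 kb of a start or boundary, against 62.0% of protein-coding genes. Their median was 19 summits per gene, against 16 over all protein-coding genes. The same 62.0% and 16 apply to each list below, and no list median was adjusted for gene length. No list was tested.

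The core kinase cassette carried start summits at all 11 genes, with a median of 19 summits per gene. Taok3, which encodes a kinase upstream of the cassette, led with 74 summits and a start fold of 90.0. Its relative Taok1 had 41 and the highest fold of the list, 136. That summit, at 77608075, was within 1 kb of a listed start that lies inside the gene, which spans 77529162 to 77625359. Stk3, the gene of the MST2 kinase, had 33 and a fold of 113 at its boundary. Lats1 and Lats2, whose kinases phosphorylate YAP, had 12 and 27 summits with start folds of 21.9 and 18.8.

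Upstream and junctional regulators had start summits at 12 of 14 genes and a median of 18 summits. Rassf1 had 86 in a crowded window and the polarity gene Pard3 had 75. Nf2, the gene of the tumor suppressor merlin, had 42 summits, with a fold of 220 inside the gene and 112 at its start. Amot and Amotl1, the relatives of Amotl2, were the genes without a start summit, and had 9 and 16 summits. The strongest summit of Amot, with a fold of 36.8 and 152 fragments, lay inside the gene at 145505342. That is close to its upper boundary at 145505966, but not within 1 kb of a listed start. By the boundary rule for genes without a listed start it would have counted.

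The Vgll genes encode cofactors that bind TEAD proteins, and Vgll4 competes with YAP for them. Vgll4 had 82 summits and a start fold of 51.0. The other 3 were nearly bare, with 3 summits at Vgll1, 2 at Vgll3 and 0 at Vgll2. Vgll1 and Vgll2 had no start summit.

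Further targets of YAP and TAZ, most of them known from human cells, had start summits at 15 of 19 genes and a median of 31 summits. Lats2 and Ptpn14 stand in this list and in those above. Asap1 had 72 summits, and Crim1 and Dock5 52 each. These are long genes, of 296, 176 and 182 kb, so their windows are wide. The highest fold, 375 with 1559 fragments, lay 35976 bp below Dock5 but 111 bp from Cdca2. Ankrd1, Axl, Igfbp3 and Ccdc80 had no start summit, and Ankrd1 and Igfbp3, with 3 and 2 summits, were also nearly bare around the gene. Ankrd1 is a widely used marker of YAP activity, which was not measured here. Axl had 36.

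**Figure D4:**
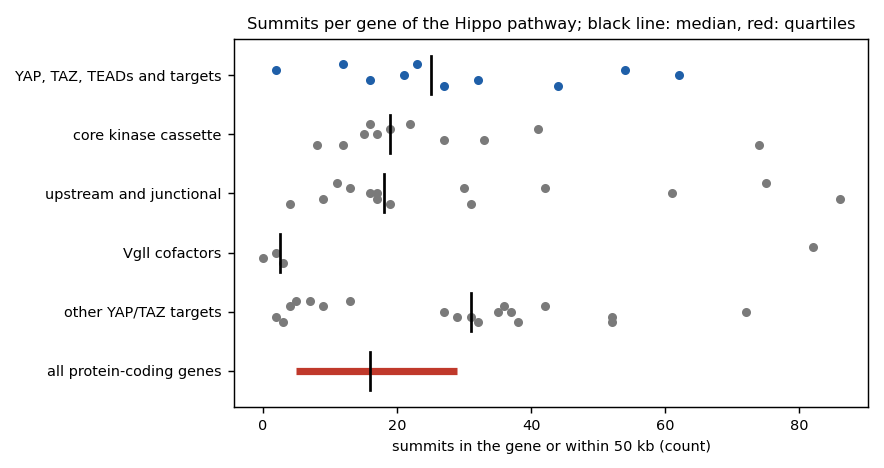
Summits in the gene or within 50 kb (horizontal axis, count) for the 10 described genes (blue) and the 4 lists of other pathway genes (grey), 1 point per gene, with medians as black lines. The red bar spans the quartiles of all protein-coding genes, 5 to 29, and the black line on it marks their median of 16.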

How the data were processed

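Fos CUT&Tag was made from 4 libraries of WT colonic epithelium, 2 colitis recovered and 2 healthy controls. Per the labels' protocols, mucosa was scraped after 30 min in 4 mM EDTA with 10% serum. Reads were aligned with Bowtie2 and peaks called with MACS2 on mm10, per the submitters' processing notes. Which libraries entered the deposited list, how they were combined, versions and depth per library are not given in the sources used here. In the list, the deposited fold column is a ratio over background. The deposited −log10 of the p-value and −log10 of the q-value (lowest 1.80) are the caller's, and the authors' score column was not used.

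A summit is the region start plus the offset, given 1-based. The nearest gene of a summit was taken among protein-coding genes, save where another kind is named. All folds were whole multiples of 0.2405 within 0.05 steps, and the pileup was taken as that multiple minus 1, since the values fit a count of 1 added to both signal and background. A Poisson p from it, as −log10, lay within 0.01 of the deposited one at all 167414 summits where it could be computed. Genes are those of RefSeq GRCm38.p6. A listed start existed for 79.9% of protein-coding genes and 7 of the 10 described. No genome sequence was used, so summits were not searched for motifs and exons and introns were not told apart. Gene density is the number of genes within 500 kb. Scripts used Python 3.11.15, pandas 2.3.3 and scipy 1.17.1 and were tested on simulated data.

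The genes and lists were chosen with earlier results of these data known. All 10 genes were named; of each other list, the 3 genes with the most summits, the one with the highest fold and those without a start summit (a gene this names is not reported here); Lats1, Lats2, Nf2, Axl and the counts of the bare Vgll genes were added after their values were seen. Alternatives changed the q threshold, summits per region, wide regions, start distance, window and nearest gene.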

Additional observations from a re-analysis of the deposited data

How the results depend on the processing

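Of the 6 summary values, the start counts moved by at most 1.5 times under every alternative that was run. The 9 genes with a start summit became 8 with a −log10 q of at least 10 and with only the strongest summit of each region. Counting only the 7 genes with a listed start gave 6 of 7, an alternative added after the data were seen. Of the 46 other pathway genes, the 38 with one became as few as 32, with a −log10 q of at least 10 or without regions wider than 3000 bp. They became 39 with a distance of 2000 bp. With listed starts only, it was 28 of 35. The median of 25 summits per gene was 15 with 1 summit per region, 14.5 with windows of 20 kb, 43 with windows of 100 kb and 14 when only summits nearest to the gene counted. In the other pathway genes the median of 19 was 12.5 with a −log10 q of at least 10, 36.5 with windows of 100 kb and 9 with nearest summits only. The median highest fold of 88.8 was 55.3 with windows of 20 kb and 52.8 with nearest summits only. The ratio of the median count to that of all protein-coding genes, 1.56, ran from 1.5 with 1 summit per region to 3.5 with nearest summits only and did not go below 1. For single genes, 27 counts of summits moved by over 1.5 times and 43 did not, and the highest fold changed in 11 cases and not in 59. The highest fold of Ccn2, 154, was 13.5 with windows of 20 kb and with nearest summits only, and that of Tead3, 132, was 73.8 and 38.2. Smaller windows and nearest-gene counting hold fewer summits by construction.

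No paired analysis was possible because the peak list has no column per library, and for the same reason no library was left out. Depth per library is unknown, so a site without a summit was not detected in this list rather than shown to be free of Fos.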
